A study of Mus musculus with 15 samples.

Results

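The 39 genes described here are imprinted genes that lie outside the Kcnq1ot1 domain, taken by name from a list. The table of the study lists 17454 genes and holds 36 of the 39, while Zim1, Snrpn and Magel2 are not in it. It measures RNA in erythro-myeloid progenitors (EMPs), yolk sac cells that give rise to definitive red cells, megakaryocytes and myeloid cells of the embryo, sorted at E10.5 with each library from an individual yolk sac. All mice were C57BL/6 and carried Ezh2fl/fl, in which Cre removes the exons of the catalytic SET domain. The 5 Tie2-Ezh2-KO libraries came from Tie2-CreTg/+ embryos, and this Cre acts in endothelium, the tissue EMPs arise from. The 5 Vav-Ezh2-KO libraries came from Vav-CreTg/+ embryos (the Vav-iCre line of the study), whose Cre acts in hematopoietic cells. The WT libraries carried the floxed alleles without Cre, 3 as Tie2-Ezh2-WT and 2 as Vav-Ezh2-WT. Levels are in RPKM, read counts scaled by transcript length and by the mapped reads of each library. Reads on genes ran from 10407398 to 41025074 per library with a median of 16091836, so that 1 read on a transcript of 2 kb made 0.0480 RPKM at the lowest depth and 0.0122 RPKM at the highest.

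Imprinted genes keep a mark of their parent of origin, most often DNA methylation laid down in egg or sperm, and are then expressed mainly from the maternal or the paternal copy. Many of them act on growth of the embryo and placenta, the paternally expressed ones often promoting it and the maternally expressed ones often restraining it. Ezh2 is the catalytic subunit of Polycomb repressive complex 2, which methylates histone H3 on lysine 27, a mark also found on the silent copy of some imprinted genes. The RPKM values sum both copies, so none of them says which copy the RNA came from.

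Ezh2 itself stood at 36.9, 39.5, 30.1, 42.0 and 41.5 RPKM in the WT libraries, given throughout in the order Tie2-Ezh2-WT replicates 4, 10 and 12 and Vav-Ezh2-WT replicates 4 and 6. It stood at 27.8, 26.2, 24.8, 29.5 and 26.5 in Tie2-Ezh2-KO replicates 7, 9, 11, 13 and 17. In Vav-Ezh2-KO replicates 1, 9, 10, 26 and 28 it stood at 33.7, 42.4, 37.8, 38.1 and 34.0. Every Tie2-Ezh2-KO library lay below every WT library, and the Vav-Ezh2-KO libraries overlapped WT. The level covers the whole gene and does not separate the deleted exons from the rest. For E10.5 yolk sac EMPs the study reported nearly complete recombination by both Cre lines with a reporter. It also reported that RNA of the deleted Ezh2 exon was lost in both deletions. The difference in log2(RPKM + 0.2) was -0.48 (SE 0.12) in Tie2-Ezh2-KO against WT, with a limma p of 0.0418 after adjustment over all genes tested, and -0.02 (SE 0.11) in Vav-Ezh2-KO against WT, with an adjusted p of 0.969. The call was lost in 11 of 20 alternative fits, 7 of which leave out a library (Tie2-Ezh2-WT replicates 4 or 10, Vav-Ezh2-WT replicates 4 or 6, Tie2-Ezh2-KO replicates 7, 11 or 17), with adjusted p over all 20 of 0.0134 to 0.344.

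The libraries carried the markers of EMPs: all 10 genes of a list of EMP markers had a mean above 1 RPKM, the most abundant was Gfi1b at 217.1, and their summed level ran from 673.6 to 927.3 over the 15 libraries. Visceral endoderm markers set 2 libraries apart. Their sum over 11 genes, of which Trf was the most abundant and none was at 0 in all libraries, reached 246.9 RPKM in Tie2-Ezh2-WT replicate 4 and 325.1 in Tie2-Ezh2-KO replicate 7. In the 13 others it stayed between 13.3 and 39.3. With all 15 libraries kept, every Tie2-Ezh2-KO library was above every Vav-Ezh2-KO library (exact permutation p = 0.00794). Of these sums, Trf gave 20.2 of 26.0 RPKM in Tie2-Ezh2-KO replicate 11 and 9.92 of 16.4 in Vav-Ezh2-KO replicate 9. The rest of the sum was lower in the former library than in the latter, so the 2 groups overlapped without Trf. A lower sum in Vav-Ezh2-KO than in WT, with overlapping groups (mean 18.2 against 68.7, exact permutation p = 0.0476), rested on Tie2-Ezh2-WT replicate 4. Without it the WT mean was 24.2 (exact permutation p = 0.0794), a choice made after seeing the data. Of the visceral endoderm genes tested between these 2 groups, 8 of 8 lay below 0, at a median of -0.93 on the log2 scale, and without that library 4 of 7, at a median of -0.07. Limma and limma-voom called 0 of the 8, and 1, Trf, had an unadjusted limma p under 0.05. Primitive erythroid markers moved with the Tie2-Ezh2-KO group: the sum over 7 genes was 319.4, 590.2, 865.3, 200.2 and 291.7 RPKM in its libraries, 72.5 to 151.2 in WT and 66.0 to 160.0 in Vav-Ezh2-KO. Tie2-Ezh2-KO thus overlapped neither group (two-sided exact permutation p = 0.00794 against each, the smallest that 5 libraries against 5 can give). Of these genes, the globins Hba-x and Hbb-bh1 passed the test in Tie2-Ezh2-KO against both other groups, and Hbb-bh1 was the most abundant. Against WT, limma-voom on recovered read counts called neither, and the call of Hbb-bh1 was lost in 13 of 20 alternative fits, 8 of them leaving out a library: any of the 5 WT libraries or Tie2-Ezh2-KO replicate 7, 9 or 11. Against Vav-Ezh2-KO the call of Hbb-bh1 was lost in 7 of 19, 5 of them without Tie2-Ezh2-KO replicate 7 or 11 or without Vav-Ezh2-KO replicate 1, 9 or 10. In bulk RNA, a change in the number of cells of a type and a change of RNA per cell cannot be told apart. The part of these marker differences in the results on imprinted genes was not tested, apart from leaving out the 2 libraries rich in visceral endoderm markers.

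The imprinted genes spanned a wide range of expression in these progenitors. Averaged over the 15 libraries, 2 stood above 100 RPKM, 4 between 10 and 100, 11 between 1 and 10, 7 between 0.2 and 1, and 12 at 0.2 or below. The median gene of the 36 had a mean of 0.557 RPKM, against 1.92 for all genes of the table. At the top stood Commd1 at 141.7 RPKM and Gnas, which encodes the stimulatory G protein alpha subunit, at 116.5. They were followed by Mcts2 at 36.0, Slc22a3 at 14.4, Impact at 14.1 and Ndn at 12.1. The growth inhibitor Grb10 had a mean of 9.99, Gatm 8.90, Dlk1 8.72, Peg12 7.72, Copg2 7.18, Sgce 5.76 and the ubiquitin ligase Ube3a 5.28. Below them came the fetal growth factor Igf2 at 2.73, Mest at 2.13, the noncoding RNA H19 at 1.87 and the signalling adaptor Gab1 at 1.84. A total of 6 genes never passed 0.2 RPKM in any library: Dio3, Klf14, Meg3, Rian, Rtl1 and Usp29. Of these, Dio3 was listed at 0 throughout.

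**Figure D1:**
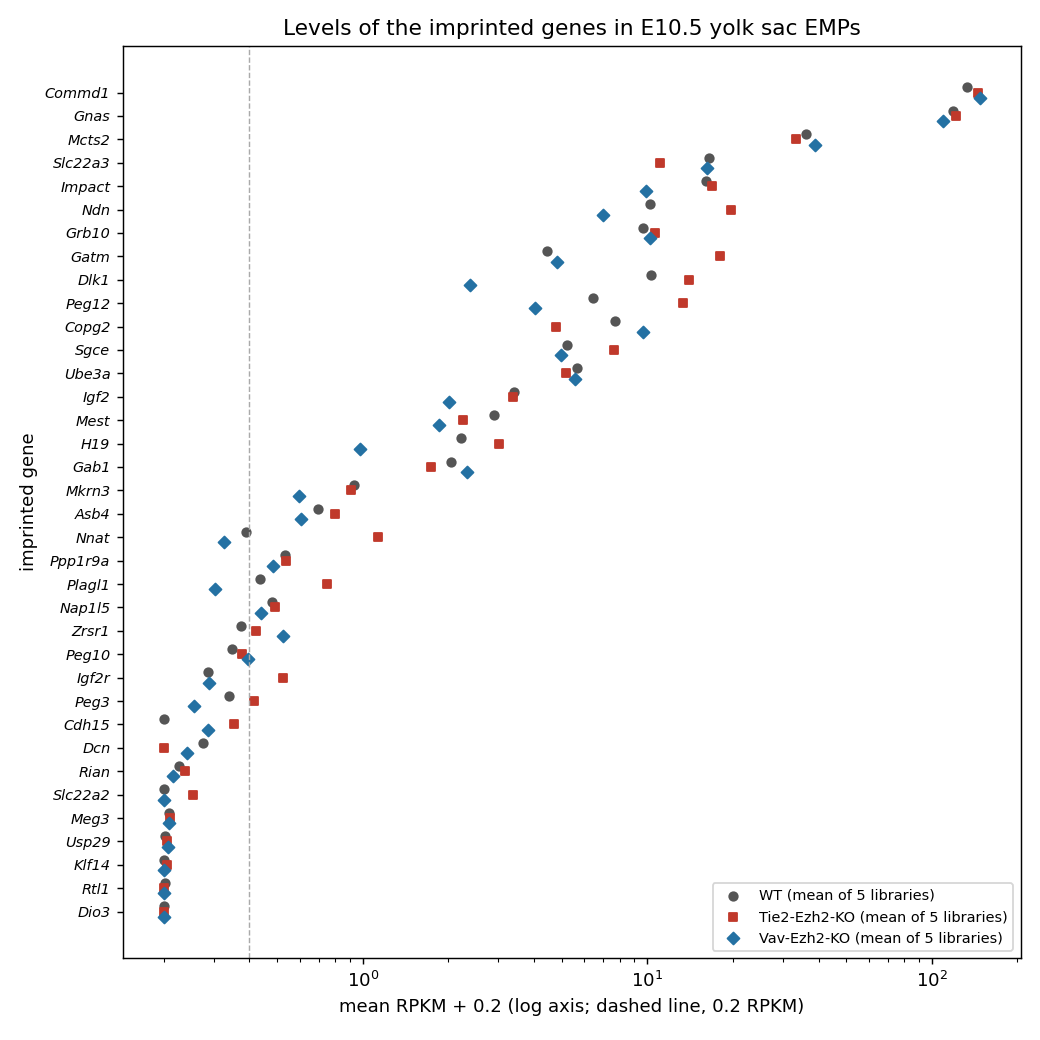
Mean level of each of the 36 imprinted genes in WT (circles), Tie2-Ezh2-KO (squares) and Vav-Ezh2-KO (diamonds), as RPKM + 0.2 on a log axis, with 5 libraries per group and genes ordered by their mean over 15 libraries. Gatm, Ndn, Peg12 and Nnat lie to the right in Tie2-Ezh2-KO, and Dlk1 and H19 to the left in Vav-Ezh2-KO.

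The study's 2 deletions ask what loss of Ezh2 does when it happens in endothelium or later in blood cells, and each was compared with the same 5 WT libraries and with the other. A gene was tested in a comparison if it passed 0.2 RPKM in at least 1 of its libraries, and was called at a limma p under 0.05 adjusted by Benjamini-Hochberg over all genes tested. A gene can enter the test through the group where it is high, so the counts describe the tested genes. In Tie2-Ezh2-KO against WT, 30 imprinted genes were tested and 1, Gatm, was called, where 386 of all 14154 genes tested were called (2.73%). At an unadjusted p under 0.05, 7 imprinted genes and 1552 of all genes passed. The groups did not overlap for 3 imprinted genes, Gatm, Nnat and Sgce, all higher in Tie2-Ezh2-KO, and 3.29% of all genes tested had every Tie2-Ezh2-KO library above every WT library. The median difference was 0.22 on the log2 scale for the 30 imprinted genes, 22 of them above 0, and 0.01 for all genes. Without the 2 libraries rich in visceral endoderm markers, a choice made after seeing the data, 217 genes were called in all and 2 imprinted genes, Gatm and Peg12.

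In Vav-Ezh2-KO against WT, limma called 0 of the 28 imprinted genes tested, and 1 of 13646 genes in all (0.00733%). An unadjusted p under 0.05 was reached by 3 imprinted genes, Dlk1, Peg12 and H19, and by 1082 of all genes. With limma-voom on recovered read counts, 0 imprinted genes and 0 genes in all were called, and 1195 genes in all had an unadjusted p under 0.05. Dlk1 was the 1 imprinted gene whose groups did not overlap, with every Vav-Ezh2-KO library below every WT library, as for 0.806% of all genes tested. The median difference was -0.13 for the imprinted genes, 19 of 28 below 0, and -0.02 for all genes.

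The direct comparison of the 2 deletions gave most of the calls among imprinted genes. In Tie2-Ezh2-KO against Vav-Ezh2-KO, 7 of 30 imprinted genes tested were called, beside 495 of 14120 genes in all (3.51%). Of these 7, 6 were higher in Tie2-Ezh2-KO, namely Gatm, Ndn, Peg12, Dlk1, H19 and Nnat, beside 2.63% of all genes tested called in that direction. The 1 lower in Tie2-Ezh2-KO was Copg2, beside 0.871% of all genes. Over all genes the calls split into 372 higher and 123 lower, and quantile normalization of the libraries shifted this to 334 and 191. The median difference was 0.39 for the imprinted genes and 0.04 for all genes. Genes known to be expressed mainly from the paternal copy had a median of 0.64 (16 tested, 4 called), and those expressed mainly from the maternal copy 0.13 (14 tested, 3 called). These medians were 0.28 and 0.13 in Tie2-Ezh2-KO against WT, and -0.33 and -0.02 in Vav-Ezh2-KO against WT. The copy was assigned to each gene beforehand and was not measured in EMPs. Some of these genes are imprinted in certain tissues only, such as Ube3a in neurons. Between the deletions, 6 imprinted genes and 345 genes in all were called without Tie2-Ezh2-KO replicate 7, the imprinted gene lost being Nnat. The number over all genes rested on single libraries: it was 969 without Tie2-Ezh2-KO replicate 9 and 320 without Vav-Ezh2-KO replicate 28. When each deletion was instead set against the WT libraries of its own line, 3 for Tie2 and 2 for Vav, the difference of the 2 effects was called for Gatm and no other imprinted gene, and for 26 genes in all by limma.

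**Figure D2:**
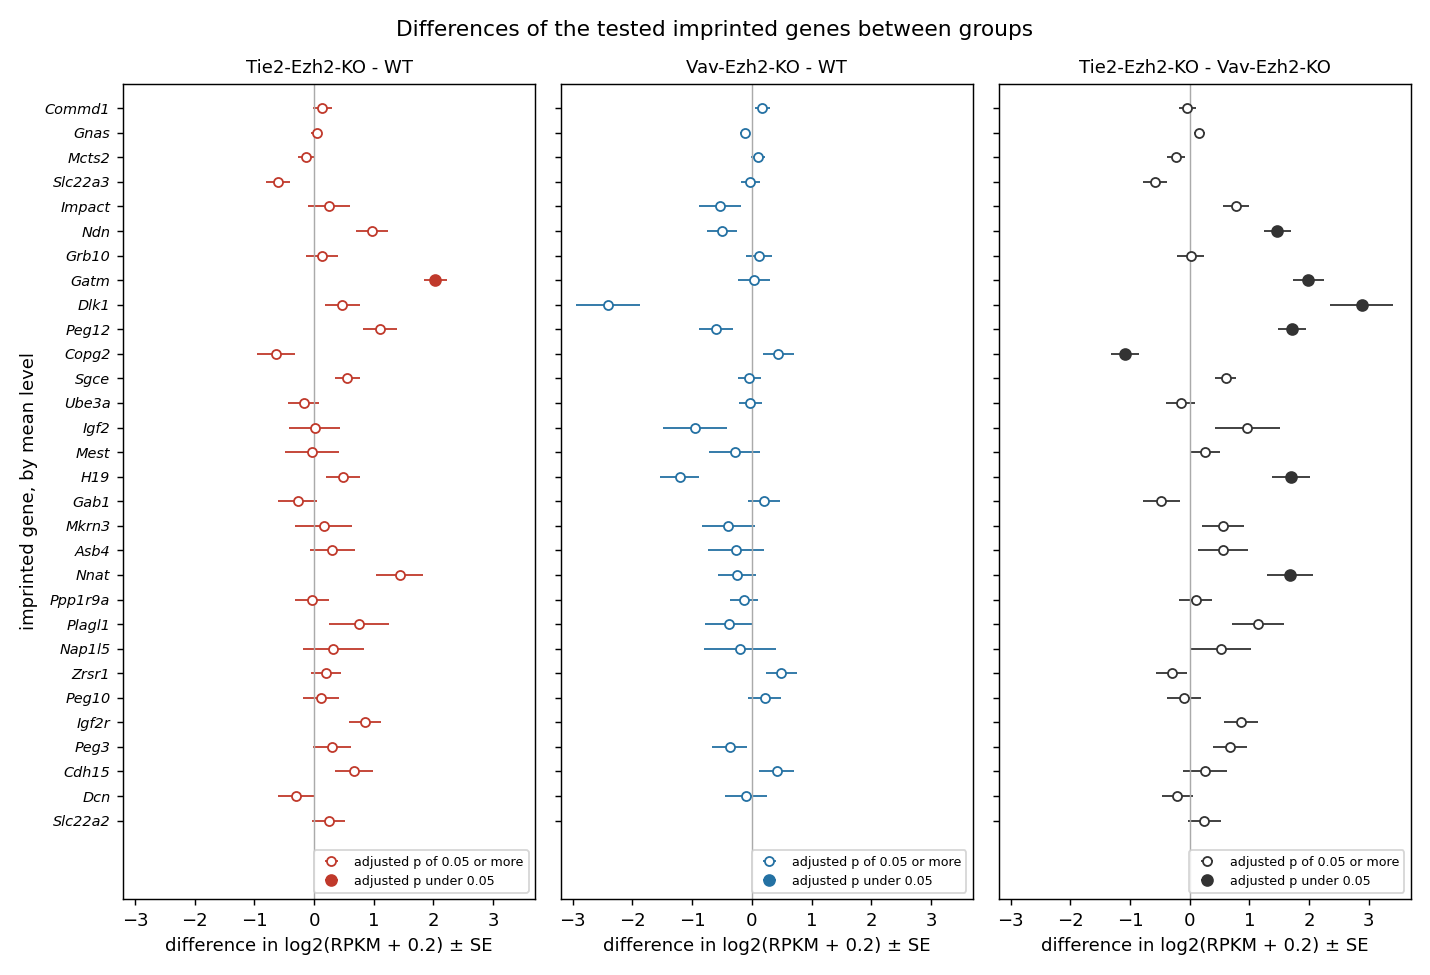
Difference in log2(RPKM + 0.2) with its standard error for each tested imprinted gene in the 3 comparisons, the first and the second sharing their 5 WT libraries. Filled points have an adjusted p under 0.05: Gatm on the left, none in the middle and 7 genes on the right.

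Gatm makes guanidinoacetate, the precursor of creatine, and is imprinted in placenta and yolk sac with expression from the maternal copy. It lies at chr2:122594473-122611277 (GRCm38). Its level was 4.44, 3.03, 3.60, 4.99 and 5.10 RPKM in the WT libraries. In Tie2-Ezh2-KO it was 15.7, 20.7, 23.0, 15.5 and 14.4, and in Vav-Ezh2-KO 5.81, 6.84, 2.82, 5.05 and 2.47. Every Tie2-Ezh2-KO library was above every other library, while Vav-Ezh2-KO and WT overlapped. These levels rest on 109 to 348 reads in WT, 548 to 979 in Tie2-Ezh2-KO and 112 to 387 in Vav-Ezh2-KO. The group means were 4.23 ± 0.896 RPKM in WT, 17.9 ± 3.76 in Tie2-Ezh2-KO and 4.60 ± 1.90 in Vav-Ezh2-KO (SD, n = 5 each). Gatm rose in Tie2-Ezh2-KO by 2.03 on the log2 scale against WT (SE 0.19, limma adjusted p = 8.88e-05, higher in 5 of 5 libraries). Against Vav-Ezh2-KO it was higher by 1.99 (SE 0.26, limma adjusted p = 5.56e-04). The difference between Vav-Ezh2-KO and WT was 0.04 (SE 0.27, limma adjusted p = 0.981), and -0.23 against the Vav-Ezh2-WT libraries alone. The rise stood at 2.09 without the 2 libraries rich in visceral endoderm markers, with an adjusted p of 0.00116.

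No gene beside Gatm was called with it. Spata5l1, which begins 19.3 kb away, had a mean of 3.99 RPKM in WT, 4.05 in Tie2-Ezh2-KO and 2.50 in Vav-Ezh2-KO, and AA467197, Gm14085 and Bambi-ps1 had group means of at most 0.244 RPKM. All 4 were tested in the 2 comparisons with Tie2-Ezh2-KO and 3 in Vav-Ezh2-KO against WT, where AA467197 was not tested, and limma and limma-voom called 0 of those tested. At an unadjusted p under 0.05 there were 0 in Tie2-Ezh2-KO against WT, 1 in Vav-Ezh2-KO against WT and 2 between the deletions. Up to 2 genes of the table were taken on each side of the 7 called genes, which gave 27 genes, of which 8 are themselves imprinted genes of the list. Of the 19 that are not, 15 were tested in each comparison with Tie2-Ezh2-KO and 13 in Vav-Ezh2-KO against WT, and 0 were called in each by limma and by limma-voom. At an unadjusted p under 0.05, 0 passed in Tie2-Ezh2-KO against WT, 1 in Vav-Ezh2-KO against WT and 3 between the deletions. In the same order, limma called 2.73%, 0.00733% and 3.51% of all genes tested. The unadjusted p was under 0.05 for 1552 of 14154, 1082 of 13646 and 2342 of 14120 genes. At these shares, 0 calls among so few neighbours do not set them apart from other genes.

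**Figure D3:**
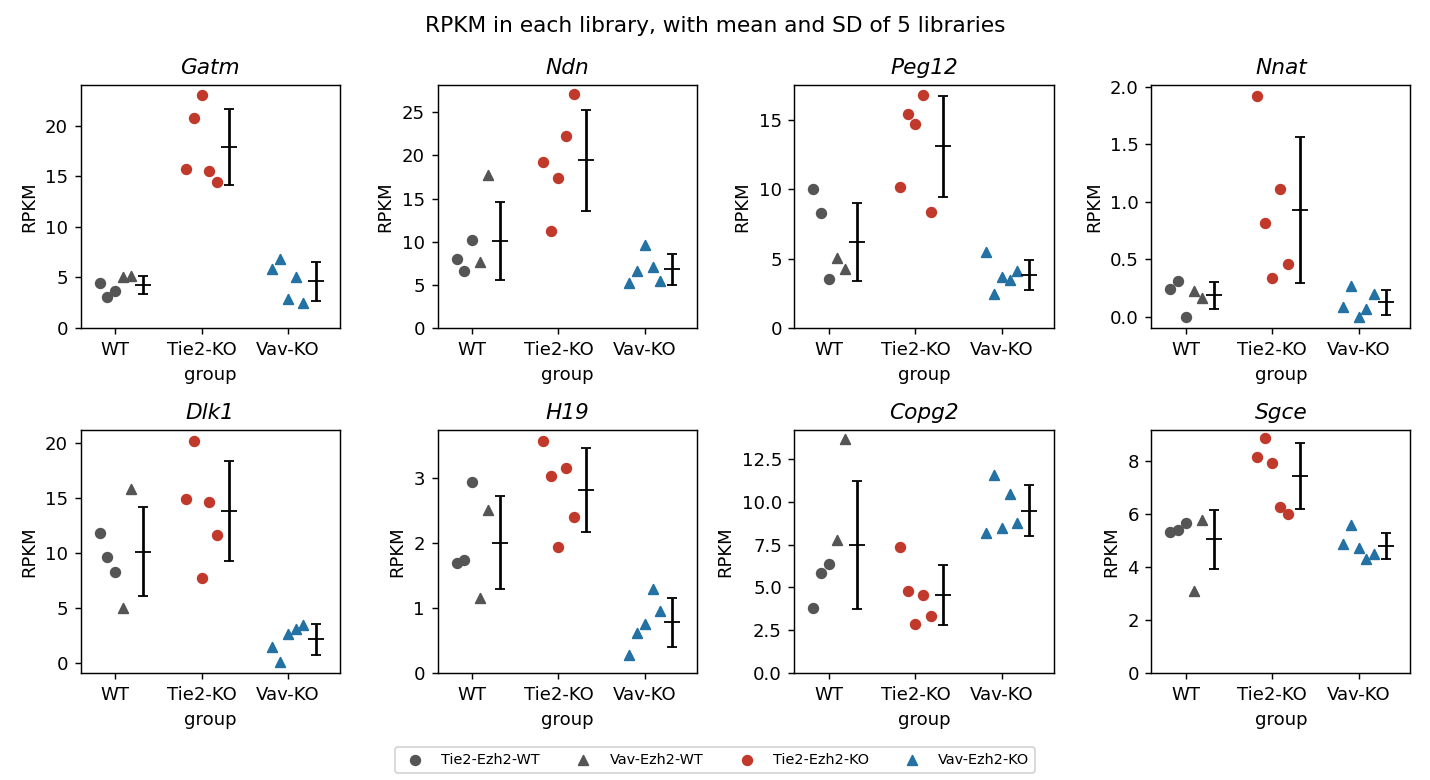
RPKM of 8 imprinted genes in each of the 15 libraries (points, circles for Tie2 and triangles for Vav lines), with the mean and SD of 5 libraries in black. Gatm is high in all 5 Tie2-Ezh2-KO libraries, at 14.4 to 23.0 RPKM, and Dlk1 is low in all 5 Vav-Ezh2-KO libraries, at 0.135 to 3.49 RPKM.

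The imprinted cluster of chromosome 7 that holds Ndn, Mkrn3, Peg12 and Ube3a corresponds to the human Prader-Willi and Angelman region, where the first 3 genes are paternally expressed and Ube3a is maternally expressed in neurons. Ndn (chr7:62348277-62349928), which encodes necdin, a protein that restrains growth and is found in blood stem cells, was at 8.03, 6.63, 10.2, 7.69 and 17.8 RPKM in WT. It was at 19.2, 11.2, 17.4, 22.3 and 27.1 in Tie2-Ezh2-KO and at 5.17, 6.54, 9.67, 7.11 and 5.38 in Vav-Ezh2-KO. The 2 deletion groups did not overlap, and the WT library at 17.8, Vav-Ezh2-WT replicate 6, reached into the range of Tie2-Ezh2-KO. Means were 10.1 ± 4.49 in WT, 19.4 ± 5.87 in Tie2-Ezh2-KO and 6.77 ± 1.81 in Vav-Ezh2-KO (SD, n = 5 each). Ndn was higher in Tie2-Ezh2-KO than in Vav-Ezh2-KO by 1.47 (SE 0.23, limma adjusted p = 0.00209), and against the WT libraries of each line by 1.98 (adjusted p = 0.0913). Against WT the difference was 0.97 in Tie2-Ezh2-KO (SE 0.27, limma adjusted p = 0.0744, exact permutation p = 0.0238). In Vav-Ezh2-KO it was -0.50 (SE 0.25, limma adjusted p = 0.653), or -0.81 against the Vav-Ezh2-WT libraries alone. The difference in Tie2-Ezh2-KO reached an adjusted p under 0.05 in 6 of 20 alternatives: against the Tie2-Ezh2-WT libraries alone, at 1.17 (adjusted p = 0.0456), with quantile normalization, with a common median, with all 15 libraries in the fit, without Vav-Ezh2-WT replicate 6 and without Tie2-Ezh2-KO replicate 9.

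Peg12 (chr7:62461871-62464510), related to the Frat family of Wnt pathway regulators, lies 112 kb from Ndn. Its levels were 10.05, 8.29, 3.55, 5.01 and 4.23 RPKM in WT. They were 10.2, 15.5, 14.7, 16.8 and 8.33 in Tie2-Ezh2-KO, and 5.45, 2.47, 3.64, 3.49 and 4.12 in Vav-Ezh2-KO. Tie2-Ezh2-KO lay wholly above Vav-Ezh2-KO, and 4 of its 5 libraries lay above every WT library. Peg12 was higher in Tie2-Ezh2-KO than in Vav-Ezh2-KO by 1.72 (SE 0.24, limma adjusted p = 8.13e-04), and by 1.20 against the WT libraries of each line (adjusted p = 0.618). Against WT the difference was 1.11 (SE 0.28, limma adjusted p = 0.0534) in Tie2-Ezh2-KO and -0.61 (SE 0.28, limma adjusted p = 0.628) in Vav-Ezh2-KO, the latter -0.30 against the Vav-Ezh2-WT libraries alone. The former passed 0.05 in 7 of 20 alternatives: with a common median, with limma-voom, with all 15 libraries in the fit, without both libraries rich in visceral endoderm markers, and without Tie2-Ezh2-WT replicate 4, Tie2-Ezh2-WT replicate 10 or Tie2-Ezh2-KO replicate 17. Mkrn3, a ring finger gene that lies between Ndn and Peg12, was low at 0.0993 to 1.89 RPKM, and its difference between the deletions was 0.56 (SE 0.35, limma adjusted p = 0.482). Ube3a ranged from 2.87 to 7.44 RPKM with a difference of -0.15 (SE 0.24, limma adjusted p = 0.813). So of the 4 listed genes of this cluster with values, the paternally expressed Ndn and Peg12 were called in the direct comparison, while Snrpn and Magel2, which also belong to it, are not in the table. The table also holds D7Ertd715e, which overlaps Ube3a in position, with group means of 0.356 to 0.582 RPKM. Snord64, which lies between Ube3a and Ndn, had group means of 0.218 to 0.270. Atp10a, from the list of further imprinted genes, lies on the same chromosome at chr7:58656142-58830244 with a mean of 1.58. None of these 3 was called in any comparison, with limma adjusted p between the deletions of 0.481, 0.988 and 0.831.

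Dlk1 and H19 had their lowest group means in Vav-Ezh2-KO, but for neither did the difference from WT pass the test. Dlk1 (chr12:109452485-109463336), a membrane protein related to Notch ligands and expressed from the paternal copy, was at 11.8, 9.69, 8.32, 5.00 and 15.8 RPKM in WT. In Tie2-Ezh2-KO it was at 14.96, 20.2, 7.77, 14.6 and 11.7, and in Vav-Ezh2-KO at 1.47, 0.135, 2.69, 3.13 and 3.49. All 5 Vav-Ezh2-KO libraries were below all 10 others, and Tie2-Ezh2-KO overlapped WT. Reads on Dlk1 numbered 12 to 482 in Vav-Ezh2-KO and 358 to 1643 in WT. Means were 10.1 ± 4.03 in WT, 13.8 ± 4.57 in Tie2-Ezh2-KO and 2.18 ± 1.37 in Vav-Ezh2-KO (SD, n = 5 each). The difference between the deletions was 2.88 (SE 0.53, limma adjusted p = 0.00611), or 2.74 against the WT libraries of each line (adjusted p = 0.415). Vav-Ezh2-KO differed from WT by -2.41 (SE 0.54, exact permutation p = 0.00794), which did not pass adjustment over all genes (limma adjusted p = 0.434). Tie2-Ezh2-KO differed from WT by 0.47 (SE 0.29, limma adjusted p = 0.671). The maternally expressed noncoding RNAs of the same cluster, Meg3 and Rian, reached at most 0.0298 and 0.132 RPKM, the retrotransposon-derived Rtl1 0.00957, and Dio3, which inactivates thyroid hormone, stayed at 0.

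H19 (chr7:142575530-142578146), a noncoding RNA expressed from the maternal copy, shares enhancers and a control region with Igf2. It stood at 1.69, 1.74, 2.95, 1.16 and 2.51 RPKM in WT. The values were 3.58, 3.03, 1.94, 3.16 and 2.40 in Tie2-Ezh2-KO and 0.271, 0.623, 0.749, 1.30 and 0.959 in Vav-Ezh2-KO. The deletion groups did not overlap, and 4 of 5 Vav-Ezh2-KO libraries lay below every WT library. H19 was higher in Tie2-Ezh2-KO than in Vav-Ezh2-KO by 1.70 (SE 0.32, limma adjusted p = 0.00762), or 1.46 against the WT libraries of each line (adjusted p = 0.582). With a pseudocount of 1 in place of 0.2 it was 1.11 (adjusted p = 0.00433). The difference from WT was 0.48 (SE 0.28, limma adjusted p = 0.635) in Tie2-Ezh2-KO and -1.21 (SE 0.33, limma adjusted p = 0.519) in Vav-Ezh2-KO, the latter -0.75 with a pseudocount of 1. Igf2, expressed from the paternal copy, ranged from 0.343 to 7.42 RPKM over the 15 libraries, and its groups overlapped in every comparison. Its difference between the deletions was 0.97 (SE 0.54, limma adjusted p = 0.410).

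Other growth regulators gave differences that did not pass the test. Igf2r, the receptor that clears Igf2, was low, with means of 0.0868 ± 0.0507 RPKM in WT, 0.324 ± 0.125 in Tie2-Ezh2-KO and 0.0877 ± 0.0680 in Vav-Ezh2-KO (SD, n = 5 each). Its difference from WT was 0.85 in Tie2-Ezh2-KO (SE 0.27, limma adjusted p = 0.141), on 8 to 21 reads per WT library and 20 to 109 per Tie2-Ezh2-KO library. The size was 0.28 with a pseudocount of 1, 1.46 with 0.05, 0.55 with quantile normalization and 2.32 with limma-voom. Slc22a3, an organic cation transporter beside Igf2r, stood at 13.9, 15.1, 13.6, 19.1 and 19.7 RPKM in WT. It was at 14.7, 9.16, 6.90, 13.3 and 10.496 in Tie2-Ezh2-KO and at 15.5, 13.5, 13.4, 16.7 and 21.3 in Vav-Ezh2-KO. In Tie2-Ezh2-KO, 4 of 5 values were below every WT value, with a difference of -0.60 (SE 0.20, limma adjusted p = 0.177). Slc22a2, another transporter of that cluster, had 0.264 RPKM in Tie2-Ezh2-KO replicate 7 and 0 in the 14 others. Grb10 ranged from 6.07 to 13.5 RPKM with a difference of 0.13 (SE 0.26) in Tie2-Ezh2-KO against WT and 0.11 (SE 0.22) in Vav-Ezh2-KO against WT. The zinc finger factor Plagl1 ranged from 0 to 1.002 RPKM, and its difference between the deletions was 1.14 (SE 0.43, limma adjusted p = 0.182), with an adjusted p of 0.0220 without Tie2-Ezh2-KO replicate 11, where it was at 0. That difference was 0.45 with a pseudocount of 1, 1.76 with 0.05 and 2.99 with limma-voom.

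Nnat, which encodes the small membrane protein neuronatin, is paternally expressed and lies within an intron of Blcap, at chr2:157560078-157562525. Its levels were low at 0.238, 0.314, 0, 0.222 and 0.166 RPKM in WT. They were 1.92, 0.811, 0.335, 1.11 and 0.462 in Tie2-Ezh2-KO and 0.0878, 0.269, 0, 0.0718 and 0.201 in Vav-Ezh2-KO. All 5 Tie2-Ezh2-KO libraries were above all 10 others, but the values rest on 0 to 6 reads in WT, 6 to 37 in Tie2-Ezh2-KO and 0 to 7 in Vav-Ezh2-KO. The difference was 1.68 (SE 0.38, limma adjusted p = 0.0246) against Vav-Ezh2-KO and 1.43 (SE 0.39, limma adjusted p = 0.0744) against WT. So near the lower limit its size depended on the pseudocount and the tool: against Vav-Ezh2-KO it was 0.72 with a pseudocount of 1, 2.50 with 0.05 and 2.84 with limma-voom, and against WT 0.65 with a pseudocount of 1 and 2.94 with limma-voom. The call against Vav-Ezh2-KO was lost in 7 of 19 alternative fits. Its adjusted p was 0.0590 without Tie2-Ezh2-KO replicate 7 and 0.0612 without Tie2-Ezh2-KO replicate 13. It was 0.0592, 0.0659 and 0.0548 without Vav-Ezh2-KO replicate 1, 10 or 26, 0.0564 with limma-voom, and 0.541 against the WT libraries of each line. The difference from WT passed in Tie2-Ezh2-KO without replicate 11 and with all 15 libraries in the fit. Blcap had a mean of 14.6 RPKM in WT, 16.4 in Tie2-Ezh2-KO and 14.7 in Vav-Ezh2-KO and was not called. In unstranded libraries, reads of unspliced Blcap RNA that fall on Nnat cannot be told from reads of Nnat.

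Copg2 and Sgce belong to 2 imprinted clusters of chromosome 6. Copg2 (chr6:30747554-30896815), a subunit of the coat of vesicles between Golgi and endoplasmic reticulum, was at 3.82, 5.86, 6.35, 7.74 and 13.6 RPKM in WT. It was at 7.35, 4.79, 2.84, 4.55 and 3.32 in Tie2-Ezh2-KO and at 8.15, 11.6, 8.48, 10.45 and 8.75 in Vav-Ezh2-KO. The deletion groups did not overlap, WT spanned both, and the 2 Vav-Ezh2-WT libraries were above the 3 Tie2-Ezh2-WT libraries. Copg2 was lower in Tie2-Ezh2-KO than in Vav-Ezh2-KO, with a difference of -1.08 (SE 0.23, limma adjusted p = 0.0171). Against the WT libraries of each line the difference was -0.13 (adjusted p = 0.991), and without Vav-Ezh2-KO replicate 9 the adjusted p was 0.0501. Mest, an imprinted gene expressed from the paternal copy, overlaps the end of Copg2 on the other strand by 0.912 kb and ranged from 0.727 to 6.58 RPKM, with a difference between the deletions of 0.25 (SE 0.25, limma adjusted p = 0.684).

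Sgce (chr6:4674350-4747204), epsilon-sarcoglycan, stood at 5.33, 5.40, 5.64, 3.08 and 5.77 RPKM in WT. Its values were 8.13, 8.86, 7.92, 6.26 and 6.00 in Tie2-Ezh2-KO and 4.87, 5.59, 4.71, 4.31 and 4.48 in Vav-Ezh2-KO. Every Tie2-Ezh2-KO library was above every other library, by a small margin. The difference was 0.56 (SE 0.21, exact permutation p = 0.00794, limma adjusted p = 0.259) against WT and 0.60 (SE 0.17, limma adjusted p = 0.0747) against Vav-Ezh2-KO, so neither passed. The latter was 0.25 against the WT libraries of each line. For its neighbours in the cluster the groups overlapped. The retrotransposon-derived Peg10, which shares a promoter region with Sgce, ranged from 0.0146 to 0.324 RPKM, Ppp1r9a from 0.202 to 0.589 and Asb4 from 0 to 1.02.

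The 3 most abundant imprinted genes overlapped between groups in every comparison. Commd1, a regulator of copper transport and NF-kB, stood at 121.1, 112.8, 185.5, 114.9 and 127.5 RPKM in WT. It stood at 147.1, 196.7, 146.1, 120.7 and 116.5 in Tie2-Ezh2-KO and at 141.7, 135.7, 161.2, 130.8 and 166.8 in Vav-Ezh2-KO, so all groups overlapped. Gnas was at 122.5, 111.7, 121.7, 110.3 and 125.9 in WT, at 123.5, 116.8, 135.6, 115.1 and 118.6 in Tie2-Ezh2-KO, and at 116.6, 97.7, 102.7, 109.5 and 119.3 in Vav-Ezh2-KO. Its largest difference over the 3 comparisons was 0.16 (SE 0.09), between the deletions, with overlapping groups. Mcts2, a retrogene within an intron of H13 that resembles Mcts1, was at 29.5, 35.2, 38.1, 38.1 and 39.3 in WT, at 34.8, 43.5, 27.0, 28.7 and 31.7 in Tie2-Ezh2-KO, and at 34.7, 43.8, 40.1, 30.5 and 45.0 in Vav-Ezh2-KO. Reads from a near copy may count toward it, and its groups overlapped.

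Impact, an inhibitor of the stress kinase Gcn2, was at 29.5, 21.95, 5.85, 12.9 and 9.53 RPKM in WT. It was at 12.9, 13.6, 22.1, 20.8 and 13.9 in Tie2-Ezh2-KO and at 11.7, 12.1, 8.04, 10.4 and 6.10 in Vav-Ezh2-KO. WT spread over both deletion groups, which did not overlap each other, with a difference of 0.78 (SE 0.21, limma adjusted p = 0.0611). Without Tie2-Ezh2-KO replicate 9 the adjusted p was 0.0366, and against the WT libraries of each line the difference was 0.29. The other imprinted genes had low levels or overlapping groups in every comparison. Gab1 ranged from 0.764 to 2.95 RPKM, Nap1l5 from 0 to 1.12, Peg3 from 0 to 0.467 and Cdh15 from 0 to 0.446, the last listed at 0 in all 5 WT libraries. Zrsr1, a retrogene within an intron of Commd1, ranged from 0.0868 to 0.434, and Dcn was above 0 in 2 libraries, with at most 0.369. No call was made for any of these 6 genes in the 3 comparisons by limma.

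Among other imprinted genes, those of the Kcnq1ot1 domain gave 3 calls in each comparison with Tie2-Ezh2-KO. In Tie2-Ezh2-KO, 3 of its 10 tested genes rose against WT, namely Phlda2 by 4.08, Ascl2 by 3.08 and Cdkn1c by 2.14 on the log2 scale. The same 3 were called among 9 tested against Vav-Ezh2-KO, at 3.98, 2.68 and 3.18, and 0 of 10 in Vav-Ezh2-KO against WT by limma, with 0 at an unadjusted p under 0.05. Its most abundant gene, Cd81, was at 314.8 RPKM and was not called. A list of further imprinted genes outside both sets, with 26 of 31 in the table, gave 1 call of 22 tested in Tie2-Ezh2-KO against WT. This was Sfmbt2, a Polycomb group gene, which rose by 1.74 (SE 0.30, limma adjusted p = 0.00404), and which was also the 1 call by limma of 21 tested against Vav-Ezh2-KO, at 1.33. With a pseudocount of 1 these differences were 0.99 and 0.81. Limma-voom called 3 of the 21 against Vav-Ezh2-KO, namely Zdbf2, Slc38a4 and Sfmbt2. By limma, 5 of the 21 had an unadjusted p under 0.05. In Vav-Ezh2-KO against WT, 0 of 18 tested were called by limma and 1 had an unadjusted p under 0.05, and the most abundant of that list, Pon2, at 41.7 RPKM, was not called.

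A list of factors that set, keep or remove imprints gave a call for Ezh2 alone. Of its 28 genes, 27 were in the table and 26 were tested, among them the DNA methyltransferases, Uhrf1, Trim28, Zfp57 and the Polycomb genes. Ezh2 was called in both comparisons with Tie2-Ezh2-KO, against Vav-Ezh2-KO at -0.46 (SE 0.11). This call was lost in 7 of 19 alternative fits, 6 of them without Tie2-Ezh2-KO replicate 7, 11 or 17 or without Vav-Ezh2-KO replicate 9, 10 or 26. Limma called 0 in Vav-Ezh2-KO against WT (2 at an unadjusted p under 0.05), and the most abundant gene was Mbd3 at 173.4 RPKM. In the pathway of Igf2, 12 of 16 genes were tested in Tie2-Ezh2-KO against WT and 2 were called. Igfbp7, a secreted protein of the Igf binding family, rose by 1.14 (SE 0.19, limma adjusted p = 0.00410) against WT and was higher by 1.44 than in Vav-Ezh2-KO. Igfbp2 was listed at 0 in all 5 WT libraries and at 0.281 to 0.814 RPKM in Tie2-Ezh2-KO (limma adjusted p = 0.00223). It entered the test through Tie2-Ezh2-KO alone, on 6 to 25 reads per library of that group. Its difference from WT was 1.75, but 0.58 with a pseudocount of 1, 3.37 with 0.05 and 4.64 with limma-voom. Against Vav-Ezh2-KO Igf2bp2 was called as well, which binds Igf2 mRNA, with a difference of 0.98 (SE 0.18, limma adjusted p = 0.00753). In Vav-Ezh2-KO against WT, 0 of 10 were called by limma and 3 had an unadjusted p under 0.05, and Igfbp4 was the most abundant gene at 42.0 RPKM. Each deletion was also set against the WT libraries of its own line. The difference of the 2 effects was then called for none of the companion genes that limma had called between the deletions. Its adjusted p was 0.264 for Phlda2, 0.618 for Ascl2, 0.511 for Cdkn1c, 0.144 for Sfmbt2, 0.972 for Ezh2, 0.350 for Igfbp7, 0.232 for Igfbp2 and 0.791 for Igf2bp2. The difference itself was 1.76 for Ascl2, 2.04 for Cdkn1c, -0.22 for Ezh2, 0.88 for Igfbp7 and 0.60 for Igf2bp2 on the log2 scale.

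EMPs were gated as KIT-positive cells without lineage markers or SCA1, and the markers of other cell types gave these sums in the libraries. Endothelial markers summed to 136.6 to 189.2 RPKM over the 15 libraries, with Egfl7 the most abundant of 10. Mesenchymal markers summed to 1.61 to 4.05, with Pdgfrb the most abundant of 10. Trophoblast markers, a tissue where many imprinted genes act, summed to 0 to 1.09, with Plac1 the most abundant of 6 and Elf5 at 0 throughout. Their sum was higher in Tie2-Ezh2-KO than in WT (exact permutation p = 0.0159), but never passed 1.09 RPKM. Macrophage markers summed to 73.9 to 170.6, with Lyz2 the most abundant of 8 and C1qa at 0 throughout. Their sum was lower in Tie2-Ezh2-KO than in Vav-Ezh2-KO, with means of 83.8 and 117.8 (exact permutation p = 0.0238), and its part in the calls between the deletions was not tested. Of all these and the EMP markers, 2 genes were called, both in Tie2-Ezh2-KO against Vav-Ezh2-KO: Gfi1b at 0.57 (SE 0.13) and Cd68 at -0.71 (SE 0.17). Each was lost in 9 of 19 alternative fits, 6 of them leaving out a library: for Gfi1b, Tie2-Ezh2-KO replicate 7 or 11 or Vav-Ezh2-KO replicate 1, 9, 10 or 28, and for Cd68, Tie2-Ezh2-KO replicate 7, 11 or 17 or Vav-Ezh2-KO replicate 1, 26 or 28. Against the WT libraries of each line the difference for Cd68 was -0.39. Over the same lists limma called 0 genes in Tie2-Ezh2-KO against WT (9 at an unadjusted p under 0.05) and 0 in Vav-Ezh2-KO against WT (1 at that p), and limma-voom 0 in both. Among visceral endoderm markers, Amn was called in Tie2-Ezh2-KO at 3.01 (SE 0.45) against WT and 3.42 (SE 0.33) against Vav-Ezh2-KO, the latter with an adjusted p of 0.153 against the WT libraries of each line. These sizes were 1.51 and 1.66 with a pseudocount of 1 and 5.78 and 6.61 with limma-voom.

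The promoters of these genes held more CG pairs, at the median, than promoters at large. RefSeq promoters of GRCm38.p6, 250 bases before to 50 after the start, were matched by symbol for 29 of the 36 genes. They held a median of 17 CG pairs in 300 bases, from 0 to 48, where the median of all 27025 promoters was 7 and 94.2% held at least 1. The 6 of the 7 called genes that were matched had a median of 14.5. The hexamer TGCCGC, the core of the site of the imprint guardian Zfp57, was searched on both strands (as TGCCGC or GCGGCA), which always includes a CG pair. It was found in 9 of the 29 promoters and in 11.6% of all. A match is a description of letters and not of a bound site. The promoters of Gatm, at chr2:122611228-122611527 on the minus strand, Ndn, at chr7:62348027-62348326 on the plus strand, and Peg12, at chr7:62464461-62464760 on the minus strand, are shown, a choice made after seeing the data, and these 3 genes had the lowest adjusted p of the 7 in the direct comparison. They hold 22, 11 and 12 CG pairs, in capitals, and no hexamer. Of the other called genes, Nnat holds 17 CG pairs and 1 hexamer, Copg2 25 and 1, and Dlk1 9 and none, and H19 was not matched.
Gatm: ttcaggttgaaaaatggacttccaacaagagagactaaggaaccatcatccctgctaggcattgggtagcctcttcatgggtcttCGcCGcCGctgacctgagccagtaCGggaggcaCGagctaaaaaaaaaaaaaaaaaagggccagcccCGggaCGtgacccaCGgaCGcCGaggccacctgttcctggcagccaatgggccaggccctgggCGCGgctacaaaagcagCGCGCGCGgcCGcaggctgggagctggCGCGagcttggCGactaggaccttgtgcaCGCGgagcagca
Ndn: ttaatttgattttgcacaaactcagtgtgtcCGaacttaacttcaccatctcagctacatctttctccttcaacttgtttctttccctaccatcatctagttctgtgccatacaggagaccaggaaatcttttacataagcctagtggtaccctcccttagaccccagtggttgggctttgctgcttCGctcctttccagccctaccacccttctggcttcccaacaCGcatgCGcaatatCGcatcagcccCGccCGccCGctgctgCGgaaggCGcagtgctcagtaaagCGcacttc
Peg12: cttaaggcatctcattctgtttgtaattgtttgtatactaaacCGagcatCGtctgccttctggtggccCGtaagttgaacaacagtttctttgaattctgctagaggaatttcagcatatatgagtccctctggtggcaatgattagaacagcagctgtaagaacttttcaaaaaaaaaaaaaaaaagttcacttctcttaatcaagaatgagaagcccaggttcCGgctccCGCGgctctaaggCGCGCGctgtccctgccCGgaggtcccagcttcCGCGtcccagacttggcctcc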

How the data were processed

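RNA-seq of EMPs was done with low-input cDNA amplified by PCR and unstranded, single-end libraries. Per the labels, the authors aligned reads with TopHat2 2.0.13 to GRCm38 and counted them on RefSeq genes with featureCounts, and the deposited values are RPKM on a linear scale. The total of each library was recovered from the RPKM values and annotated gene lengths. Read counts were then recovered with the shortest length that gave whole reads in every library, which was found for all 16877 genes above 0. For genes with few reads this length can be too short and the counts too low. PCR reads are not independent molecules. For each of 3 comparisons, log2(RPKM + 0.2) was fitted with limma 3.58.1 in R 4.3.3 (lmFit, eBayes with trend), for genes above 0.2 RPKM in at least 1 library, with Benjamini-Hochberg adjustment over all of them and a threshold of 0.05. The fit was tested on simulated data with normal noise. At a log2 change of 1 it recovered 89, 89 and 88 of 100 changed genes in the 3 comparisons, and 100 of 100 in each at 2. It also called 12, 12 and 13 unchanged genes. Only genes well above the lower limit were changed, so recovery of genes with low levels was not tested. Exact permutation tests were two-sided over all 252 divisions of 5 libraries against 5. The test without Tie2-Ezh2-WT replicate 4 used all 126 divisions of 4 against 5. The labels assign no experiment or batch to libraries, so no such term was fitted. Alternatives changed the pseudocount, filter, scaling, tool, libraries and WT group. Full values per library were given for genes called in any comparison, genes above 0.2 RPKM whose deletion group did not overlap WT, and the 6 most abundant. Companion and marker lists were read from the same fits, naming up to 6 called genes and the most abundant of each. The genes and lists were chosen with earlier results of these data known.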

Additional observations from a re-analysis of the deposited data

Results flagged for a closer look

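In the 13 genes given by library, 39 groups of 5 libraries were checked for a value far from the other 4. There were 2, where chance gives about 1 in 20, or 1.95. Commd1 in Tie2-Ezh2-WT replicate 12 stood at 185.5 RPKM above the other WT libraries, and Sgce in Vav-Ezh2-WT replicate 4 stood at 3.08 RPKM below them.

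Between the 2 deletions, 7 imprinted genes differed by the limma test. With WT libraries in common, WT cancels from the difference of the 2 effects, so this is the direct comparison again and no separate result. The differences, Tie2-Ezh2-KO less Vav-Ezh2-KO on the log2 scale, were 2.88 for Dlk1, 1.99 for Gatm, 1.72 for Peg12, 1.70 for H19, 1.68 for Nnat, 1.47 for Ndn and -1.08 for Copg2. With the WT libraries of each line, the difference of the effects was called for Gatm alone, at 2.44 (limma adjusted p = 0.0359), and was -0.13 for Copg2 (adjusted p = 0.991).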

How the results depend on the processing

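No paired analysis was possible because the compared groups share fewer than 2 replicate numbers and the labels name no litters. Gatm passed the threshold in all 20 alternatives of Tie2-Ezh2-KO against WT (differences of 1.85 to 2.21, adjusted p of 6.47e-05 to 0.00116) and in all 19 of Tie2-Ezh2-KO against Vav-Ezh2-KO (1.80 to 2.44, adjusted p of 1.36e-04 to 0.0359). In Tie2-Ezh2-KO against WT, 1 imprinted gene was called; there were 2 with quantile normalization, 3 with a common median, 2 with limma-voom, 4 with all 15 libraries in the fit, 2 with matched WT libraries, 2 without both libraries rich in visceral endoderm markers, and 1 to 2 without each library in turn. Those added were among Ndn (past the threshold in 6 of 20 alternatives, adjusted p of 0.0127 to 0.264), Peg12 (7 of 20, 0.0204 to 0.332) and Nnat (2 of 20, 0.0348 to 0.251). Over all genes, the 386 calls became 187 with matched WT libraries, where fewer libraries are used, and 217 without both libraries rich in visceral endoderm markers, a choice made after seeing the data, and 262 to 438 without each library in turn. In Vav-Ezh2-KO against WT, the 1 call over all genes became 0 with limma-voom, 2 with matched WT libraries and 1 to 2 without each library, and limma called 0 imprinted genes in each alternative. In Tie2-Ezh2-KO against Vav-Ezh2-KO, the 7 imprinted genes became 1 with matched WT libraries, and 6 to 8 without each library, and the 495 genes in all became 26 with matched WT libraries and 320 to 969 without each library. The matched fit compares effects that each have their own error; the cause of the other changes was not tested. With matched WT libraries the adjusted p was 0.415 for Dlk1 (range over the alternatives 8.80e-04 to 0.415), 0.0913 for Ndn (3.59e-04 to 0.0913), 0.618 for Peg12 (7.93e-04 to 0.618), 0.582 for H19 (0.00344 to 0.582), 0.541 for Nnat (0.0121 to 0.541) and 0.991 for Copg2 (0.00499 to 0.991). No called imprinted, companion or marker gene reversed its direction in an alternative of a comparison where it was called. The median difference over all genes, near 0 throughout, did change sign with scaling: from 0.0107 to -0.0254 with quantile normalization in Tie2-Ezh2-KO against WT, from -0.0154 to 0.0290 with a common median in Vav-Ezh2-KO against WT, and from 0.0413 to -0.0135 with quantile normalization between the deletions. The sizes of genes near the lower limit moved with the pseudocount and the tool, as for Nnat, at 0.72 to 2.84 between the deletions. Depth limits the genes under 0.2 RPKM, which rest on few reads.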
